A study of Mus musculus with 8 samples.

Results

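The expression of 9 genes of the Nodal signalling pathway was followed across 4 kinds of sample. They are the ligands Nodal and Gdf3, the co-receptor Tdgf1, the receptors Acvr1b and Acvr2b, the transcription factor Foxh1 and the secreted inhibitors Lefty1, Lefty2 and Cer1. They were picked by name and are read by 17 of the 34945 probe sets with a single gene symbol, or 9 of 18193 genes. The samples came from CCE, an ES cell line of the 129/Sv mouse strain, kept undifferentiated on gelatin with serum and leukemia inhibitory factor. Each of the 8 arrays held total RNA of 1 sample. Embryoid bodies (EBs), aggregates in which ES cells lose that state and form many cell types, were collected on day 10. The first group was EBs from cells given a lentivirus with mouse Bmi1 cDNA (2 arrays), and the second was EBs from cells given the empty lentivirus (2 arrays). The third group was undifferentiated ES cells with the Bmi1 virus (2 arrays). The fourth, the control ES cells, joined 1 array of untreated cells and 1 array of empty vector cells. All virus-treated cells had been sorted for eGFP after 2 passages, per the labels, and the untreated cells carry no virus. Nothing says how many clones or cultures lie behind the arrays, so an error here is the spread between arrays, which may be technical.

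Nodal is a secreted ligand of the TGF-beta family. It binds a type I receptor such as Acvr1b and a type II receptor such as Acvr2b, usually with the co-receptor Tdgf1 (Cripto), and the receptors phosphorylate Smad2 and Smad3. These join Smad4 and DNA-binding partners such as Foxh1 and switch on target genes, among them Nodal itself and its inhibitors Lefty1 and Lefty2, so that the pathway feeds back on itself in both directions. In the early mouse embryo it maintains the epiblast and induces endoderm and mesoderm, and undifferentiated ES cells are known to express several of its genes.

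The promoters show that the genes do not share 1 kind of start. RefSeq promoter sequences (GRCm38.p6, from 250 bases before to 50 bases after the gene start) were matched for 5 of the 9 genes, and 3 are printed because 2 of these genes fell in EBs and 1 did not. Capitals mark each CG dinucleotide. The Nodal promoter lies at chr10:61417722-61418021 on the + strand and Tdgf1's at chr9:110946109-110946408 on the - strand, and that of Acvr1b at chr15:101173822-101174121 on the + strand.
Nodal: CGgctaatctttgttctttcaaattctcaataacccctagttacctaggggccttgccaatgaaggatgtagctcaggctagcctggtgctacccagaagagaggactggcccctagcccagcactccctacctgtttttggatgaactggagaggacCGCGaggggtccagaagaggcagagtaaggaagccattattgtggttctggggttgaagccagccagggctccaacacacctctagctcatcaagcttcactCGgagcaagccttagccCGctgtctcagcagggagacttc
Tdgf1: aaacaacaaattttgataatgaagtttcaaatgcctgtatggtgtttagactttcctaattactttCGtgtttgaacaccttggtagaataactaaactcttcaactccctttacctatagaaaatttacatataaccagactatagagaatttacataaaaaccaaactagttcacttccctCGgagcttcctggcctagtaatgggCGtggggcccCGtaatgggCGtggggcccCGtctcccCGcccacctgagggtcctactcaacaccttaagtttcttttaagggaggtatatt
Acvr1b: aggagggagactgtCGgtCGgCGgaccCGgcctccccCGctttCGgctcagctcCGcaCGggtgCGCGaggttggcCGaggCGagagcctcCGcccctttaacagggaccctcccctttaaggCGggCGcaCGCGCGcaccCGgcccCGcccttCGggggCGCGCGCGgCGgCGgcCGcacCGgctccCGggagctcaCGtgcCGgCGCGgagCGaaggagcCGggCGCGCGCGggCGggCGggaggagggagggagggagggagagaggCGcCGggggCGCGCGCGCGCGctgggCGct
The window holds 5 CG dinucleotides in Nodal and 7 in Tdgf1, against 51 in Acvr1b. Over all 32851 promoters in the table the median was 7, with quartiles of 3 and 20, so Nodal and Tdgf1 sit near the middle and Acvr1b among the most CG-rich. The other 2 matched promoters held 27 (Acvr2b) and 6 (Cer1). The Acvr2b window begins at chr9:119401928 on the + strand, past the RefSeq gene start at 119401583, so it lies inside the gene. The search covered 3 motifs on both strands. AATCCACA, the Foxh1 site, was in none of the 5 windows and in 0.855% of all promoters. AATNNACA, the same site with 2 free bases, which contains it, occurred 2 times in Tdgf1, 0 times in the other 4 windows, and in 12.2% of all promoters. CAGAC, a Smad site, occurred 1 time each in Tdgf1, Cer1 and Acvr2b and in 49.6% of all promoters. In Tdgf1 these matches lie close together, and the stretch is shown with the matches in capitals.
Tdgf1 stretch: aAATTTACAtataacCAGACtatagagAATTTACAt
A match is a run of letters and shows no binding.

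The values are log2 intensities, so a difference of 1 is a 2-fold difference in signal. Values are given for the brightest probe set of a gene, which was the one tested, and the other probe sets of a gene are described beside it. A probe set's level says nothing against that of another gene. The arrays fell into 3 sets by their value distributions. One held both EB arrays numbered 1, one both EB arrays numbered 2, and one the 4 ES cell arrays (mean absolute difference of sorted values 0.00994 to 0.0325 in the 8 pairs within a set and 0.189 to 0.442 in the 20 pairs across sets). An array with each label stands in either EB set, so EB comparisons are also given within each set and with the set as a block. No set held both stages, so stage and set cannot be told apart, and a small difference between EBs and ES cells could be a difference between sets. In a stage comparison the block takes the spread between the EB sets out of the error, so blocked stage p-values can be too small. Bmi1 itself, the transduced gene, goes against the labels. Its signal on the brighter probe set was 7.48 and 8.51 in EBs labelled Bmi1 against 9.35 and 9.67 with the vector. For ES cells the values were 5.68 and 6.28 under the Bmi1 label against 7.41 and 7.74 in the controls. The sources used here do not say whether its probes lie in the cDNA. Samples are therefore named by their label, and each direction below is that of the arrays labelled Bmi1. As a check of the labelled cell states, the summed linear signal of 10 ES cell markers such as Pou5f1 and Nanog was 60126 to 75205 on the ES cell arrays and 6727 to 20846 on the EB arrays.

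**Figure D1:**
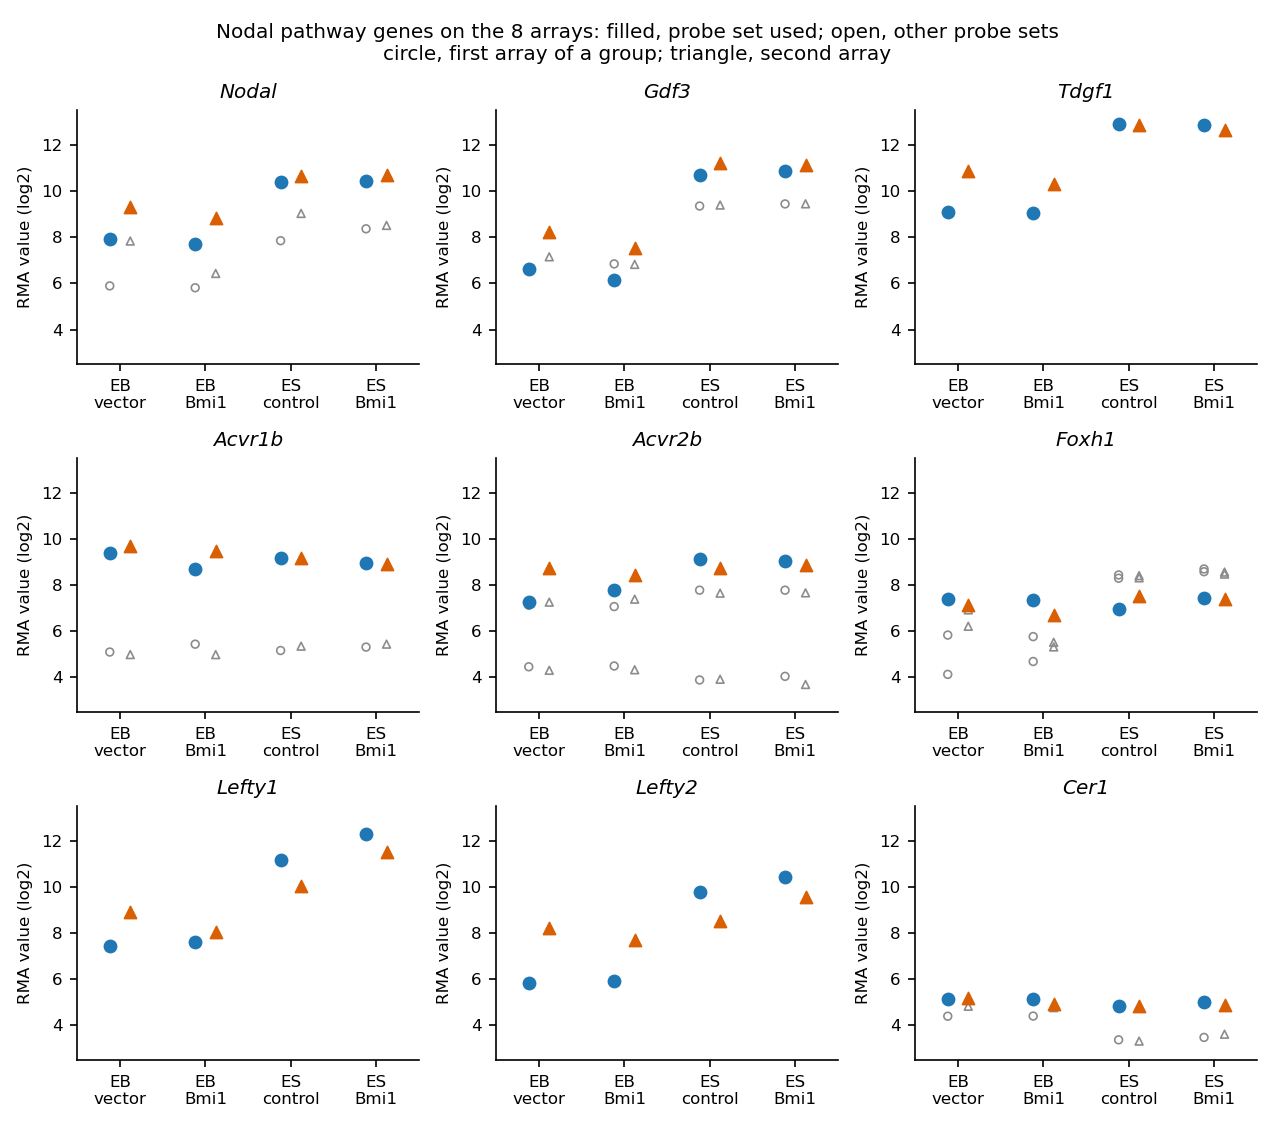
RMA values (log2) of the 9 genes on the 8 arrays, with filled symbols for the probe set used and open symbols for the other probe sets of the gene. Nodal, Gdf3, Tdgf1, Lefty1 and Lefty2 are higher on every ES cell array than on every EB array, by the probe set used, and Cer1 stays low on all 8.

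The comparison of stages asked which of these genes differ between day 10 EBs and ES cells. Both ligands, the co-receptor and Lefty1 fell, by 3.74-fold to 11.7-fold in vector EBs against control ES cells and by 4.93-fold to 17.8-fold in the arrays labelled Bmi1. Lefty2 fell in the arrays labelled Bmi1. The receptors did not pass this test (Acvr2b passed as lower once the EB set was a block), and the probe sets of Foxh1 disagreed. By limma with Benjamini-Hochberg adjustment over all 12982 genes tested, 4 of the 8 tested genes were lower in vector EBs and 5 of 8 in EBs labelled Bmi1, and 0 were higher. Of all genes, 35.8% were lower and 22.7% higher in the first comparison, and 38% and 21.2% in the second. The median difference of the 8 genes was -2.01 and -2.69, against -0.24 and -0.27 over all genes. Calls between the stages were thus common among all genes. Markers of undifferentiated ES cells moved in the same direction, 10 of 10 lower in vector EBs and 9 of 10 in those labelled Bmi1, and their part in the falls of the Nodal pathway genes was not tested. In bulk RNA, fewer cells that make a transcript and less transcript per cell cannot be told apart.

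The 2 ligands stood lower on all EB arrays. Nodal read 10.39 and 10.66 in control ES cells and 10.45 and 10.68 in those labelled Bmi1. In EBs it read 7.93 and 9.32 with the vector and 7.71 and 8.82 in those labelled Bmi1. The 2 stages did not overlap, and the array numbered 2 was the higher one in both EB groups. Nodal fell by 1.90 ± 0.50 on the log2 scale in vector EBs (SE, n = 2 and 2 arrays, limma adjusted p = 0.0144) and by 2.30 ± 0.50 in those labelled Bmi1 (adjusted p = 0.00664). Its call in vector EBs rests on few arrays: the adjusted p was 0.0506 without vector EB replicate 1 and 0.0505 without the untreated and 0.0758 without the empty vector ES cell array. Its other probe set, 1422057_at, gave -1.58 (adjusted p = 0.072) and -2.32 (adjusted p = 0.0186).

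Gdf3, a relative of Nodal that also binds Tdgf1 and is typical of pluripotent cells, read 10.71 and 11.22 in control ES cells and 10.87 and 11.12 in those labelled Bmi1. Values fell to 6.63 and 8.21 in vector EBs and 6.14 and 7.54 in EBs labelled Bmi1. No other of the 9 genes had a larger stage difference: -3.55 ± 0.60 in vector EBs (SE, n = 2 and 2 arrays, limma adjusted p = 0.00222) and -4.16 ± 0.60 in EBs labelled Bmi1 (adjusted p = 0.00123). Its other probe set, 1460057_at, fell by 2.45 and 2.61, a smaller change with both arrays of every EB group between 6.69 and 7.15.

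Tdgf1, the membrane-anchored co-receptor that lets Nodal engage its receptors, read 12.93 and 12.87 in control ES cells and 12.86 and 12.66 in those labelled Bmi1. The vector EBs read 9.08 and 10.89 and the EBs labelled Bmi1 9.07 and 10.31. The ES cell arrays lay close together, while the 2 vector EB arrays were 1.81 apart. Tdgf1 fell by 2.91 ± 0.60 on the log2 scale in vector EBs (SE, n = 2 and 2 arrays, limma adjusted p = 0.00516) and by 3.07 ± 0.60 in those labelled Bmi1 (adjusted p = 0.00422).

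The receptors did not pass in the fit without a block, and each passed under another setting. Acvr1b, the type I receptor also known as ALK4, read 9.16 and 9.19 in control ES cells, 8.94 and 8.91 in ES cells labelled Bmi1, 9.38 and 9.69 in vector EBs and 8.68 and 9.48 in EBs labelled Bmi1. Its stage differences were 0.36 (95% interval -0.28 to 0.99) and 0.15 (-0.48 to 0.79), with EB and ES cell arrays overlapping in the arrays labelled Bmi1. This result depends on the scaling: after quantile normalization Acvr1b was higher in EBs, by 0.89 (adjusted p = 0.0107) and 0.66 (adjusted p = 0.0315), and after median centring the second difference was -0.19. Its other probe set, 1422098_at, was above the array median on 0 arrays and read 4.99 to 5.45. Acvr2b, the type II receptor that starts the phosphorylation cascade, read 9.14 and 8.75 in control ES cells, 9.07 and 8.87 in those labelled Bmi1, 7.29 and 8.75 in vector EBs and 7.78 and 8.43 in EBs labelled Bmi1. Its low values were the 2 EB arrays numbered 1, and its differences of -0.92 ± 0.46 and -0.86 ± 0.46 (SE, n = 2 and 2 arrays) did not pass (limma adjusted p = 0.124 and 0.149). Another Acvr2b probe set, 1439856_at, read 7.65 to 7.78 in ES cells and 7.07 to 7.39 in EBs and differed by -0.52 in vector EBs (limma adjusted p over all probe sets = 0.0475) and by -0.49 in those labelled Bmi1 (adjusted p = 0.0568). The third, 1440525_at, was above the array median on 0 arrays, was not tested and had the opposite sign, 0.48 and 0.54. On the brightest probe set, both differences passed with the EB set as a block (adjusted p = 0.0078 and 0.0108), as did Lefty2 in vector EBs (adjusted p = 0.0043), so that the blocked fit called 6 of 8 genes lower in each comparison. Acvr2b in vector EBs was at -1.66 on the array numbered 1 and -0.19 on that numbered 2, a spread the block takes out of the error. It called 45.3% of all genes lower and 29.5% higher in vector EBs, and 46.6% and 27.8% in EBs labelled Bmi1.

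Foxh1, the DNA-binding partner of the Smads, gave 2 answers. Its brightest probe set, 1422212_at, read 6.72 to 7.55 on all 8 arrays with the stages overlapping, and differed by 0.01 (95% interval -0.66 to 0.68) and -0.37 (-1.03 to 0.30). The other 2 probe sets fell. On 1422213_s_at the ES cell arrays read 8.30 to 8.70 and the EB arrays 5.52 to 6.22, a fall of 2.33 ± 0.21 in vector EBs (SE, n = 2 and 2 arrays, limma adjusted p over all probe sets = 0.000203) and of 2.94 ± 0.21 in those labelled Bmi1 (adjusted p = 0.000111). On 1437779_at the ES cell arrays read 8.32 to 8.58 and the EB arrays 4.14 to 6.93, with a fall of 2.85 (adjusted p = 0.0172) and 3.57 (adjusted p = 0.00696). When every probe set was tested on its own, 33% of 22951 probe sets were lower in vector EBs and 34.8% in those labelled Bmi1. The sources used here do not say which Foxh1 transcripts the 3 probe sets read.

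The inhibitors Lefty1 and Lefty2 are closely related, secreted antagonists of Nodal and direct targets of its signal, and their probes may read each other's transcripts. Lefty1 read 11.17 on the untreated and 10.03 on the empty vector ES cell array, and 12.29 and 11.50 in those labelled Bmi1. It read 7.45 and 8.91 in vector EBs and 7.61 and 8.04 in EBs labelled Bmi1. Every EB array was below every ES cell array, and the 4 ES cell arrays spread more than for the ligands. Lefty1 fell by 2.42 ± 0.56 on the log2 scale in vector EBs (SE, n = 2 and 2 arrays, limma adjusted p = 0.00868) and by 4.07 ± 0.56 in EBs labelled Bmi1 (adjusted p = 0.00107). Without the untreated ES cell array the first value was -1.85 (adjusted p = 0.0597) and no longer passed.

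Lefty2 read 9.79 and 8.52 in the untreated and empty vector ES cells, 10.43 and 9.57 in those labelled Bmi1, 5.83 and 8.24 in vector EBs and 5.93 and 7.69 in EBs labelled Bmi1. The vector EB array numbered 2, at 8.24, came near the empty vector ES cell array, at 8.52. Both EB arrays numbered 1 lay just below their array medians, 5.96 for vector and 5.97 for the one labelled Bmi1, so these low values are dim. The difference was -2.12 ± 0.90 in vector EBs (SE, n = 2 and 2 arrays, limma adjusted p = 0.0778) and -3.19 ± 0.90 in those labelled Bmi1 (adjusted p = 0.0186). The second call was lost without EB replicate 1 labelled Bmi1 (-2.31, adjusted p = 0.112) and without ES cell replicate 1 labelled Bmi1 (-2.76, adjusted p = 0.102).

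Cer1, a secreted inhibitor of Nodal made in the embryo by anterior visceral endoderm, was not above the array median on any of the 8 arrays with either probe set and was not tested. Its brighter probe set read 4.84 to 5.17 over all arrays. Fitted without the filter on dim genes it differed by 0.30 (limma adjusted p = 0.185) and 0.09 (adjusted p = 0.702). The other probe set, 1450256_at, read 4.40 to 4.83 in EBs and 3.32 to 3.62 in ES cells, so that the stages did not overlap, with differences of 1.27 and 1.04. These were not tested because the probe set was above the array median on 0 arrays.

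**Figure D2:**
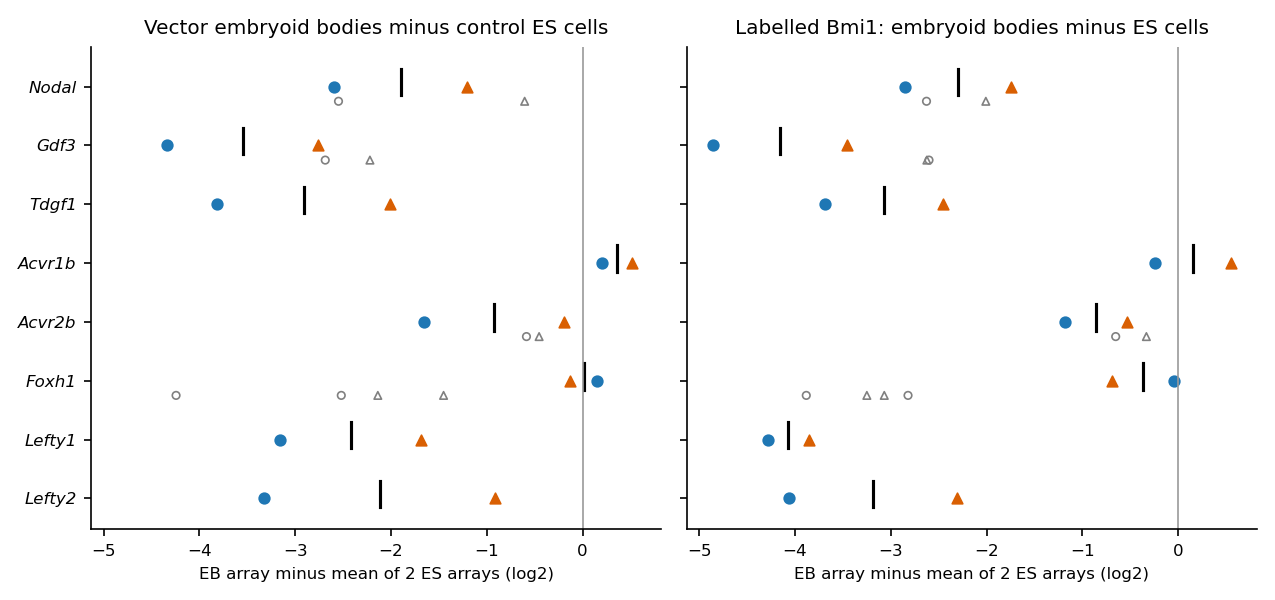
Each EB array minus the mean of the 2 ES cell arrays of its arm (log2), for the 8 tested genes, with circles for EB arrays numbered 1, triangles for those numbered 2, black bars for the mean of the probe set used and open symbols for other probe sets. Gdf3 has the lowest mean in both panels, -3.55 and -4.16, and for every gene but Foxh1 the filled circle lies left of the filled triangle.

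Within each virus group of EBs, the 2 arrays stood apart in these genes. By the probe set used, the arrays numbered 2 read higher than those numbered 1 in both virus groups for Nodal, Gdf3, Tdgf1, Acvr1b, Acvr2b, Lefty1 and Lefty2. Most genes shared this direction: 64.3% of all tested genes read higher in the arm labelled Bmi1 and 59.2% in the vector arm. The comparison of arrays numbered 1 and 2 was added after the values were seen. In the blocked limma fit, 6 of 8 genes were higher in the arrays numbered 2, against 26.6% of all genes. There 0 of 8 were lower, against 1621 of all 12982 genes. The median difference was 1.15, against 0.15 over all genes. Lefty2 differed most, by 2.08 ± 0.45 (SE, 2 and 2 arrays, adjusted p = 0.0141), followed by Tdgf1 at 1.52 ± 0.16 (adjusted p = 0.00366), Gdf3 at 1.49 ± 0.19 (adjusted p = 0.00426) and Nodal at 1.25 ± 0.15 (adjusted p = 0.00421). On both arrays numbered 1, Lefty2 was below the array median. The receptors Acvr2b (1.06, adjusted p = 0.0131) and Acvr1b (0.55, adjusted p = 0.0226) passed as well. Lefty1 at 0.95 (adjusted p = 0.129) and Foxh1 at -0.47 (adjusted p = 0.101) did not. Other probe sets differed in part, given for the arm labelled Bmi1, then vector. Gdf3's 1460057_at was at -0.02 and 0.47, Acvr2b's 1439856_at at 0.32 and 0.13, and Foxh1's 1437779_at at 0.63 and 2.79. Nodal's 1422057_at was at 0.62 and 1.94, and Foxh1's 1422213_s_at at -0.25 and 0.38. The dim ones of Acvr1b (-0.45 and -0.11) and Acvr2b (-0.16 and -0.15) were lower.

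Markers of undifferentiated ES cells moved with this difference, and their part in it was not tested. Of 10 such markers 9 were higher in the arrays numbered 2, and their summed linear signal was 8602 and 6727 on the arrays numbered 1 (labelled Bmi1, then vector) and 17846 and 20846 on those numbered 2. The summed signal of the 9 Nodal pathway genes ran from 1905 and 2143 to 3568 and 5050, against 14159 to 18306 in ES cells. Such a sum is led by the brightest probe sets, in ES cells above all Tdgf1 (12.66 to 12.93), and does not weigh the 9 genes equally. Genes known to respond to Nodal were also higher, 6 of 7 tested, including Otx2, a head organiser factor, by 2.73 and Eomes, which specifies endoderm and mesoderm, by 2.06. Cxcr4, among the 6, was above the array median only on the EB arrays numbered 2, so the filter favoured this direction. By the same fit, 3457 of all 12982 genes (26.6%) were higher and 1621 lower. Of visceral endoderm markers 1 of 8 was higher (Sox17), and of trophoblast markers 1 was higher and 1 lower of 6. Of primitive red cell markers 2 of 3 were higher (Hba-x and Hbb-bh1), and of endothelial markers 1 was higher (Pecam1) and 1 lower (Kdr) of 6.

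**Figure D3:**
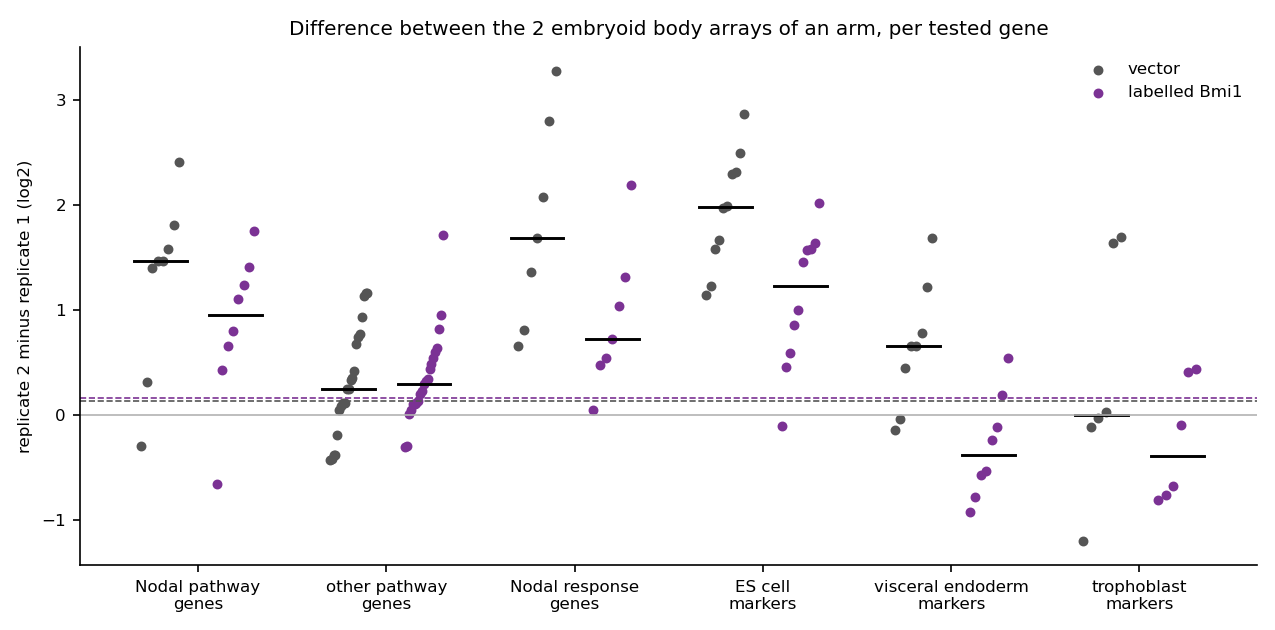
Log2 value on the EB array numbered 2 minus that numbered 1, for each tested gene of 6 lists, within the vector arm (grey) and within the arm labelled Bmi1 (purple). Bars mark list medians, which for the Nodal pathway genes are 1.47 and 0.95, and dashed lines mark the medians over all tested genes, 0.13 and 0.16.

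The next comparison asked whether EBs labelled Bmi1 differed from vector EBs. None of the 8 genes passed. The limma adjusted p ran from 0.837 to 1, 0 genes had an unadjusted p under 0.05, and 0.139% of all genes passed. With the EB set as a block 0 genes passed too, against 2.09% of all genes, and 2 had an unadjusted p under 0.05, Gdf3 and Acvr1b. The difference was -0.58 for Gdf3 (95% interval -1.98 to 0.82, and -1.03 to -0.13 with the block, blocked adjusted p = 0.156) and -0.45 for Acvr1b (-1.09 to 0.18, and -0.79 to -0.12 with the block, blocked adjusted p = 0.142). Nodal, at -0.36, had an interval of -1.54 to 0.82, and Tdgf1, at -0.30, one of -1.71 to 1.11. With the block the intervals were narrower, -0.72 to 0.0054 for Nodal and -0.68 to 0.08 for Tdgf1.

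Within the sets the picture was uneven. In the arrays numbered 1, 3 of 8 genes were higher in the array labelled Bmi1 (median difference -0.03), against 42.9% of all genes (median -0.05). In those numbered 2, 0 of 8 were higher (median -0.53), against 46% of all genes (median -0.03). Lefty1 was at 0.16 and -0.87 in the 2 sets, Lefty2 at 0.10 and -0.55, Acvr2b at 0.49 and -0.32 and Tdgf1 at -0.01 and -0.59. Gdf3 (-0.49 and -0.67), Nodal (-0.21 and -0.50), Acvr1b (-0.69 and -0.21) and Foxh1 (-0.04 and -0.41) kept 1 sign on the probe set used. Gdf3's other probe set, 1460057_at, did not (0.16 and -0.33, mean -0.09), nor did Foxh1's 1437779_at (0.56 and -1.60). Acvr2b's 1439856_at was at -0.06 and 0.13, and the dim Acvr1b probe set 1422098_at at 0.34 and -0.0033. Nodal's 1422057_at (-0.08 and -1.40) and Foxh1's 1422213_s_at (-0.07 and -0.70) kept 1 sign. ES cell markers had a median of 0.36 in the first set, where 8 of 10 were higher, and -0.64 in the second, where 2 of 10 were; their part in the values above was not tested. Of the other marker lists, 0 genes passed without the block. With it, which called 2.09% of all genes, Plac1 was higher and Sox17, Hba-x, Hbb-bh1, Emcn, Pecam1 and Tek were lower in EBs labelled Bmi1. The median differences of these lists in the 2 sets were 1.56 and 0.67 for trophoblast and -1.68 and -1.64 for primitive red cells. They were -0.96 and -0.86 for endothelium and -0.07 and -0.79 for visceral endoderm. Of 6 trophoblast markers 5 were higher in each set, and Cdx2 was lower (-0.89 and -0.36). Of 8 visceral endoderm markers 3 were higher in the first set and 1 in the second, with Afp higher in both (0.91 and 0.03).

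In ES cells, the question was whether those labelled Bmi1 differed from the controls. None of the 8 genes passed: the limma adjusted p ran from 0.822 to 1, 0 genes had an unadjusted p under 0.05, and 0.0462% of all genes passed. Lefty1 had the largest difference, with 12.29 and 11.50 against 11.17 and 10.03, so that the arrays did not overlap. How many of all genes separate in this way was not counted. Lefty1 was 1.29 ± 0.56 higher (SE, n = 2 and 2 arrays, 95% interval -0.04 to 2.62, limma adjusted p = 0.822), and 1 array less moved this to between 0.72 and 1.86. With the block, which called 1.66% of all genes, its adjusted p was 0.256, and it was the single gene with an unadjusted p under 0.05. Lefty2 was at 0.84 (-1.27 to 2.95), with overlapping arrays. The other 6 genes lay between -0.25 and 0.15, with Nodal at 0.04 (-1.14 to 1.22), Gdf3 at 0.03 (-1.37 to 1.43) and Tdgf1 at -0.14 (-1.56 to 1.27). The control arrays differed from each other by more than 1 unit for Lefty1 and Lefty2, with the untreated array higher in both. Of 10 ES cell markers 0 were higher in ES cells labelled Bmi1 (median -0.26), against 51.1% of all genes (median 0.0041). Of these markers 0 passed, and their part in the values above was not tested.

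The difference between these 2 effects was tested as an interaction. It passed for 0 of 8 genes by limma (0 with an unadjusted p under 0.05) and for 0% of all genes, where 887 had an unadjusted p under 0.05. With the block it again passed for 0 of 8, against 0.824% of all genes. Lefty1 was lowest at -1.65 ± 0.80 (SE, n = 2 arrays in each of 4 groups, adjusted p = 0.841, and 0.25 with the block). Its labelled Bmi1 arrays were higher in ES cells, by 1.29. In EBs the difference was 0.16 in the arrays numbered 1 and -0.87 in those numbered 2. The comparisons of stages and of labels share arrays, so the interaction value and the larger stage fall of Lefty1 in the arrays labelled Bmi1 are 1 observation.

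**Figure D4:**
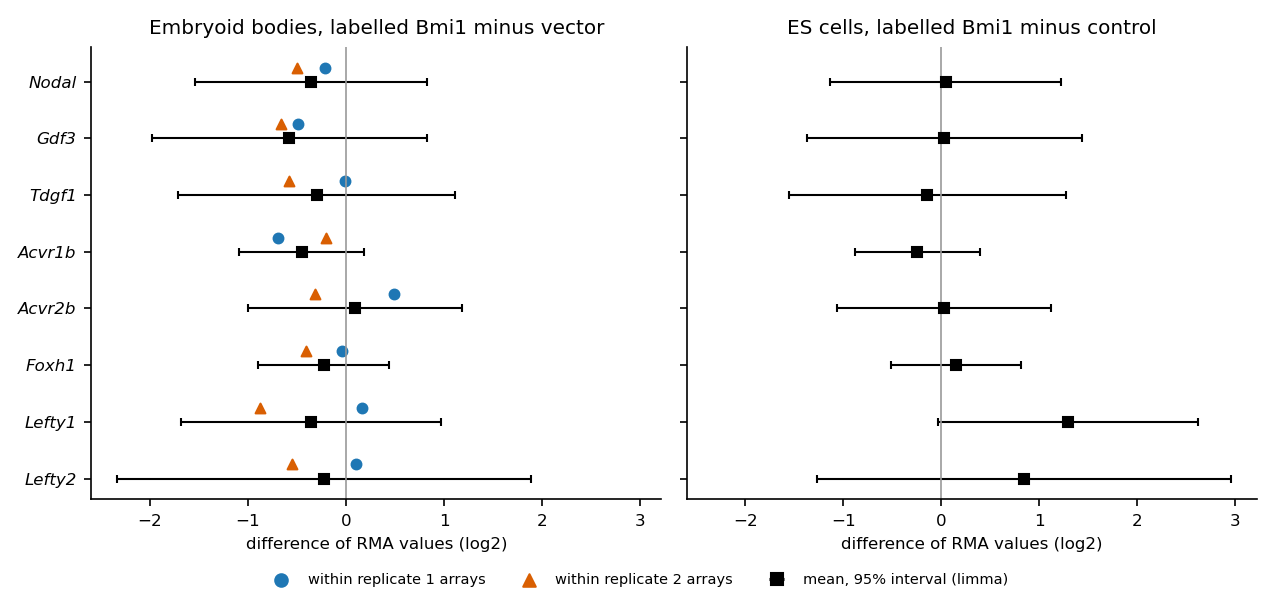
Difference between arrays labelled Bmi1 and their controls (log2) in EBs and in ES cells, with squares for the mean and bars for limma's 95% interval, and circles and triangles for the difference within EB arrays numbered 1 and 2. Every interval in both panels includes 0, and Lefty1 in ES cells, from -0.04 to 2.62, comes nearest to leaving it out.

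Among the other pathway genes calls went in both directions. Of 23 further pathway genes 22 were on the array (not Gdf1) and 21 were tested (not Acvr1c, a type I receptor, which was dim). In vector EBs 7 were higher and 7 lower than in control ES cells, and in EBs labelled Bmi1 6 were higher and 8 lower, with medians of -0.15 and -0.16. Of all genes, 22.7% were higher and 35.8% lower in the first comparison and 21.2% and 38% in the second, so the share of lower calls was near that of all genes. The activin subunit Inhbb fell by 4.47 ± 0.22 on the log2 scale in vector EBs (SE, n = 2 and 2 arrays, limma adjusted p = 2.58e-05) and differed by -3.40 in those labelled Bmi1. It read 10.33 and 10.44 in control ES cells, 9.42 and 9.35 in those labelled Bmi1 and 5.72 to 6.26 in EBs. Inhba, the other activin subunit, was higher by 1.06 and 0.63.

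Among genes that limit the signal, directions were mixed. Tgif1, a repressor that binds Smads, fell by 1.82 and 2.13, its relative Tgif2 by 0.94 and 0.96, and the inhibitory Smad7 by 1.5 and 1.45. Bambi, a decoy receptor, rose by 2.43 and 1.41, Dand5, a Nodal inhibitor of the Cer1 family, by 1.09 and 0.96, and Fstl3, which binds activin, by 0.97 and 1.49. Dand5 was above the array median on EB arrays only, so it was tested only because it was high in EBs. Cfc1, the relative of Tdgf1 that acts in left-right patterning, was higher by 2.55 ± 0.35 (SE, n = 2 and 2 arrays, limma adjusted p = 0.000982) and 1.90 (adjusted p = 0.00336), the opposite direction to Tdgf1. Its values were 5.45 to 6.06 in ES cells and 7.62 to 8.75 in EBs. Among the signal carriers Smad3 rose by 1.00 and 0.84 and Smad2 fell by 0.71 and 0.64, while Smad4 was at 0.10 and -0.04. Ski, a Smad-binding repressor, fell by 0.73 and 0.80, and Drap1, a transcriptional repressor, by 0.61 and 1.21. Furin, a protease that processes TGF-beta family precursors, rose by 0.51 in vector EBs, and Tmeff1, a membrane protein with follistatin domains, fell by 0.80 in those labelled Bmi1.

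The smaller of these differences depend on the scaling. Quantile normalization moved the counts to 10 higher and 4 lower in vector EBs and 7 and 4 in those labelled Bmi1, and median centring to 6 and 9 and to 4 and 10. Over all genes called between the stages, 38.8% and 35.8% were higher, against 48.8% and 47.5% after quantile normalization and 26.6% and 22.8% after median centring, as the median difference of all genes moved to -0.04 and -0.02 or to -0.56 and -0.62. With the block, 9 were higher and 10 lower in vector EBs and 7 and 10 in those labelled Bmi1, against 29.5% higher and 45.3% lower of all genes in the first comparison and 27.8% and 46.6% in the second. This added Acvr2a, a type II receptor (0.68), in vector EBs, Fst, the activin-binding follistatin (1.55 and 0.99), in both, Pcsk6, a precursor protease (-0.69 and -0.69), in both, Tmeff1 (-0.67) and Trim33, a ubiquitin ligase acting on Smads (-0.37), in vector EBs, and Skil, a Smad-binding repressor (-0.46), in those labelled Bmi1. After quantile normalization Smad2 (-0.21 and -0.07) and Ski (-0.26 and -0.27) passed in neither arm, Drap1 (-0.22) and Furin (0.54) no longer passed in vector EBs, and Inhba (0.33), Tgif2 (-0.39) and Tmeff1 (-0.075) no longer passed in those labelled Bmi1. Smad4 then passed in both, at 0.99 and 0.87. After median centring Furin (0.19) in vector EBs and Inhba (0.29) and Smad3 (0.49) in those labelled Bmi1 no longer passed. The sign of the stage difference turned with the scaling for Skil, Trim33 and Smad4 in both arms, for Tmeff1 in vector EBs and for Acvr2a in the arrays labelled Bmi1.

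Of these 21 genes 0 differed between arrays labelled Bmi1 and their controls at either stage by limma. Of all genes, 0.139% did in EBs and 0.0462% in ES cells, and 2.09% and 1.66% with the block. With the block, Fstl3 was higher in EBs labelled Bmi1, by 0.74 (adjusted p = 0.265 without and 0.0445 with the block), at 7.43 and 7.44 against 6.79 and 6.60. Inhbb was lower in ES cells labelled Bmi1, by 1.00 (adjusted p = 0.237 without and 0.0292 with the block). The arrays of the groups did not overlap for either gene, but how many of all genes separate in this way was not counted.

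Of the genes that answer Nodal in the embryo, Sox17, Foxa2 and Cxcr4 were higher in EBs. From a list of 12, 11 genes were on the array and 7 were tested, since Evx1, Fgf8, Gsc and Lhx1 were dim. In both comparisons 3 were higher and 0 lower, beside 22.7% and 21.2% of all genes higher and 35.8% and 38% lower. Sox17 and Cxcr4 were above the array median on EB arrays only, Cxcr4 only on those numbered 2. They were thus tested only because they were high in EBs, which favours a call as higher. Sox17, an endoderm factor also made by visceral endoderm and endothelium, rose by 5.36 and 4.95, Foxa2, a factor of endoderm and midline, by 2.27 and 2.25, and Cxcr4, a chemokine receptor of definitive endoderm and other tissues, by 2.0 and 1.69. Cxcr4 no longer passed after quantile normalization (1.61 and 1.31, adjusted p = 0.0558 and 0.104) and, in EBs labelled Bmi1, after median centring (1.35, adjusted p = 0.0703). With the block Hhex, a factor of anterior endoderm and blood vessels, was also higher in vector EBs (0.46, adjusted p = 0.0223) and Otx2 lower in EBs labelled Bmi1 (-0.88, adjusted p = 0.0237), although its EB arrays read 6.15 and 8.33 and enclosed the ES cell values. Mixl1, an early mesendoderm factor (0.41 and -0.38), and Eomes (0.55 and -0.29) did not pass. Between labels 0 of 7 passed at either stage, beside 0.139% of all genes in EBs and 0.0462% in ES cells. The block called 2.09% of all genes in EBs. With the block Sox17 was lower in EBs labelled Bmi1, by 0.83 (adjusted p = 0.534 without and 0.0375 with the block), at 8.10 and 8.64 against 8.87 and 9.53. As visceral endoderm and endothelial markers moved between stages as well (6 of 8 and 6 of 6 higher in vector EBs), how much of Sox17 belongs to which cells was not tested. Some of these markers, such as Afp and Emcn, also passed the filter through EB arrays only.

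**Figure D5:**
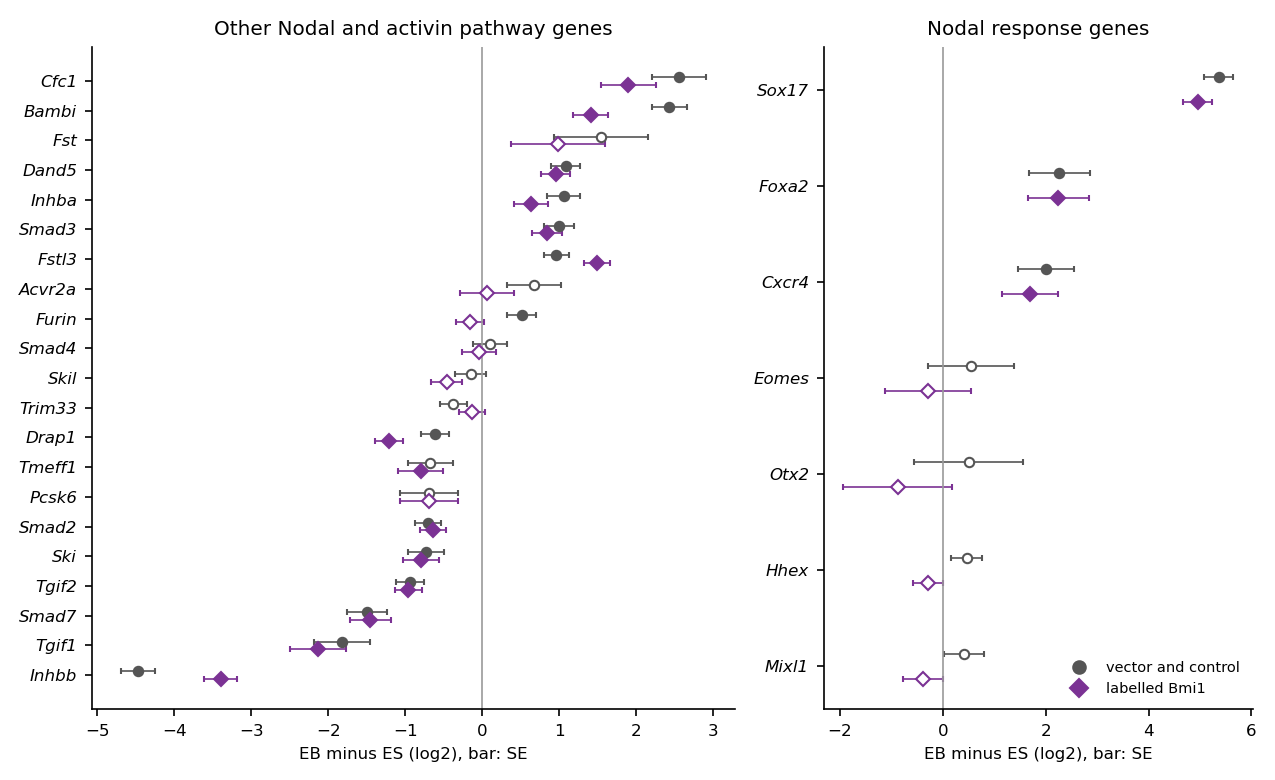
Stage difference (EB minus ES, log2) with its SE for 21 further Nodal and activin pathway genes and 7 Nodal response genes, with circles for vector EBs against control ES cells and diamonds for the arrays labelled Bmi1. Filled symbols passed limma's adjusted threshold: Inhbb is lowest at -4.47 and -3.40, and Sox17 highest at 5.36 and 4.95.

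Across the 8 arrays, Tdgf1 and Gdf3 followed Nodal most closely of the other members (Pearson r = 0.99 each), then Lefty2 (0.93), Lefty1 (0.91) and Acvr2b (0.89), while Foxh1's brightest probe set (0.14) and Acvr1b (-0.09) did not. The tested genes most like Nodal were Nup93, a nuclear pore protein, Prpf4b, a splicing kinase, and Rbm17, a splicing factor. For Tdgf1 they were Kat14, Nop58, a nucleolar protein, and Qtrt1, an enzyme of tRNA modification, and for Lefty1 they were Atad1, Rnf6, a ubiquitin ligase, and 1110065P20Rik. Many genes share the step between the stages: 2320 of 12974 genes had r above 0.95 with Nodal, 2830 with Tdgf1 and 428 with Lefty1. These are descriptions over 8 arrays in 4 groups that share the 3 sets, and carry no test.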

How the data were processed

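RNA of 8 samples was hybridised to 1 Affymetrix array each, and the deposited values are log2 intensities made by the authors with RMA (version not given in the sources used here), per the submitters' processing notes. RMA corrects background, normalizes arrays processed together and summarises probes, and since the arrays form 3 distribution sets, differences between sets can hold scaling. Symbols came from the platform annotation. Of 45101 probe sets, 64 controls were left out, 932 had several symbols and 9160 had none. A gene was read by its brightest probe set with 1 symbol, and the 12982 genes above the array median in at least 2 arrays were tested.

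One model with 4 groups was fitted with limma 3.58.1 in R 4.3.3 (lmFit, eBayes; 4 residual degrees of freedom), with two-sided p-values, Benjamini-Hochberg adjustment and a threshold of 0.05. Replicate numbers pair the EB arrays in the data (deviations from group means correlate at r = 0.72, against 0.03 and 0.04 with the ES cell arrays), though the labels do not say so. A second fit therefore had the EB set as a block (3 residual degrees of freedom). The sets lie within EBs, so its errors for stage leave out the spread between EB sets. The script was tested on simulated data. The genes and lists were chosen with earlier results of these data known, and the comparison of EB sets was added after the data were seen. Named were all 9 genes, the listed genes that passed in any comparison with or without the block, otherwise the 2 with the smallest p per label comparison, Bmi1 and the 3 genes most alike in pattern to Nodal, Tdgf1 and Lefty1; Smad4, Eomes and Mixl1 were named after their values were seen. Alternatives covered the filter, probe set choice, scaling, prior, controls and single arrays. With 2 arrays a group, precision is low.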

Additional observations from a re-analysis of the deposited data

How the results depend on the processing

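With 2 arrays a group and arrays whose stages lie in separate sets, single values are imprecise. The number of genes called stayed at 0 under each alternative for the label comparisons in EBs and ES cells and for their interaction. For the stage comparison it was 4 of 8 in vector EBs, 2 with the empty vector and 3 with the untreated ES cell array alone as control, 5 after quantile normalization (1 of them higher), 5 after median centring (Lefty2 passed, adjusted p = 0.0472), 5 with the replicate block over the numbered arrays or the mean of probe sets, 6 with every probe set on its own, 6 with the embryoid body set as a replicate block and between 2 and 6 without 1 array (2 without the untreated array). In EBs labelled Bmi1 it was 5, 6 with that block, the mean of probe sets, every probe set or quantile normalization (1 of the latter higher), and between 4 and 6 without 1 array. Besides these calls the block changed no call of the 8 tested genes. Some alternatives in the next count, such as the block, the prior and the filter, can change a p-value but not a difference. Its values that kept sign and side include 79 for labels in EBs, 90 for labels in ES cells and 86 for the interaction. None of those passed in any of these fits. Over the other alternatives 396 values kept sign and side of the threshold, 8 passed newly, 3 no longer passed and 12 changed sign, against 276, 4, 6 and 34 in the fits without 1 array.

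Foxh1 in vector EBs against ES cells turned to -1.72 with the mean of its probe sets (limma adjusted p = 0.00246), -0.034 after quantile normalization, -0.31 after median centring and -0.27 with the empty vector array alone as control. With that control the ES cell label differences turned for Foxh1 (-0.13), Gdf3 (-0.23) and Nodal (-0.094), and the interaction of Acvr2b to -0.13. The ES cell difference of Acvr2b turned to -0.17 with the untreated array alone and to -0.0019 with the mean of probe sets. The stage difference of Acvr1b in the arrays labelled Bmi1 turned to -0.0054 with that mean and to -0.19 after median centring.

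Without 1 array, signs turned as follows. In EBs by label, Nodal lay between -1.05 and 0.34, Gdf3 between -1.37 and 0.21, Tdgf1 between -1.20 and 0.60, Lefty1 between -1.09 and 0.38, Lefty2 between -1.43 and 0.98, Acvr2b between -0.64 and 0.82 and Foxh1 between -0.55 and 0.10. In ES cells by label, Nodal lay between -0.094 and 0.18, Gdf3 between -0.23 and 0.28, Acvr2b between -0.17 and 0.22 and Foxh1 between -0.13 and 0.43. In the interaction, Nodal lay between -1.10 and 0.30, Gdf3 between -1.40 and 0.18, Tdgf1 between -1.06 and 0.75, Lefty2 between -2.27 and 0.14, Acvr1b between -0.60 and 0.19 and Acvr2b between -0.67 and 0.80. Between stages, Foxh1 lay between -0.27 and 0.29 in vector EBs and Acvr1b between -0.24 and 0.55 in EBs labelled Bmi1. The fits without 1 EB array set 1 EB set against the mean of both, which takes in the difference between the sets.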
